A study of Homo sapiens with 4 samples.

Results

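The mRNAs of 9 genes that act on or belong to the amyloid precursor protein family were examined in RCC4 cells after PML silencing. They are the beta-secretases BACE2 and BACE1, the precursor proteins APP and APLP2, the gamma-secretase subunits PSEN2, NCSTN, APH1A and PSENEN, and the alpha-secretase ADAM10. The genes were found by their symbols among the 59050 genes of the count file, and all 9 passed the filter on low counts, which left 16516 genes. They were chosen by function around BACE2, and BACE2 was itself chosen by its lower level in the shPML libraries of this series, so its difference between shPML and shCtrl is given as a description, and nothing is read from its place among the calls of the fits. RCC4 is an established human clear cell renal cell carcinoma (ccRCC) line. All cells carried a doxycycline-inducible hairpin, either shPML#1 against PML (shPML) or a scrambled sequence (shCtrl), and all received doxycycline at 100 ng/ml for 96 h. Bulk populations from 2 experiments with independent lentiviral infections gave 2 shPML and 2 shCtrl libraries, and 1 hairpin against PML was sequenced.

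APP and APLP2 are single-pass membrane proteins that are cut in successive steps. An alpha-secretase such as ADAM10 or a beta-secretase sheds the ectodomain, and the gamma-secretase complex of presenilin, nicastrin, APH1 and PEN-2 then cuts the remaining stub within the membrane. BACE1 is the main beta-secretase of neurons, where its cut starts the release of amyloid-beta, whereas BACE2 is found mostly in peripheral tissues and can also cut APP inside the amyloid-beta sequence. The same alpha- and gamma-secretases process Notch receptors and many other surface proteins.

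Libraries held from 27781193 to 69870617 counted reads. Levels are given as CPM, read counts scaled to a common library size after TMM normalization, and p-values come from edgeR's quasi-likelihood test over all 16516 genes with Benjamini-Hochberg adjustment. Calls required an adjusted p under 0.05 together with a log2 fold change beyond 0.5 in either direction. The fit had no block, and a fit with the replicate number as a block (replicate block) is given beside it because it changes most calls. Reading the replicate numbers as the 2 experiments is an inference, since the sources used here do not state it. Without the block the p-values measure the spread between 2 libraries per group. With the block they measure how far the differences between shPML and shCtrl within the 2 replicates are alike. Both fits share spread across genes, and the common dispersion, edgeR's measure of that spread, was 0.0813 without and 0.0137 with the block. PML, the targeted gene, was at 93.1 and 136 CPM in shCtrl replicates 1 and 2 and at 54.9 and 87.6 CPM in shPML replicates 1 and 2. It was 1.70-fold lower within replicate 1 and 1.55-fold lower within replicate 2. Its log2 fold change was -0.69 (edgeR adjusted p = 0.32 without and 4.2e-07 with the block), so PML was called lower only with the block. The kidney markers PAX8 and PAX2 and the ccRCC marker CA9 were present in all 4 libraries, with PAX8 from 302 to 427 CPM. The library of shPML replicate 2 stood apart by leukocyte genes. LYZ reached 85.4 CPM there and at most 0.0739 CPM in the other libraries, and PTPRC was at 12.6 CPM against at most 0.0976 CPM. The T cell marker CD3E was at 0 in every library. Of the endothelial markers, PECAM1 was at 4.11 CPM there and at most 0.042 CPM in the other libraries, while VWF and CDH5 were not higher there. Over 14 myeloid genes picked after these values had been seen, the summed level was 18.2 and 10.7 CPM in shCtrl, 30.7 CPM in the first shPML library and 371 CPM in the second, while MPO was at 0 in every library. The part of these transcripts in the differences below was not tested, and replicate 1 values, which do not use that library, are given beside each main result.

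BACE2 was the member with the largest difference. It lies on the plus strand of chromosome 21 of GRCh38 from 41167801 to 41282530, with 8926 exon bases in 9 merged exons and no exon base shared with another gene of the file. The counts were 6264 and 4774 reads in shCtrl replicates 1 and 2 and 1449 and 567 reads in shPML replicates 1 and 2. This corresponds to 116 and 133 CPM in shCtrl and 20.2 and 20.6 CPM in shPML. Both shPML libraries lay far below both shCtrl libraries, and the 2 shPML libraries differed by less than the 2 shCtrl libraries. The level was 5.73-fold lower within replicate 1 and 6.43-fold lower within replicate 2. The fitted log2 fold change was -2.60 (standard error, SE, 0.16) without the block and -2.60 (SE 0.12) with the replicate block. Without shPML replicate 2 it was -2.62. In bulk RNA, fewer cells that express a gene and less RNA of it per cell cannot be told apart.

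BACE1, the other beta-secretase, lies on the minus strand of chromosome 11 from 117285207 to 117316259. It was at 29.3 and 32.7 CPM in shCtrl and at 26.5 and 25.6 CPM in shPML replicates 1 and 2. The groups did not overlap, but the difference was small, with a log2 fold change of -0.25 (SE 0.16, adjusted p = 0.50 without and 0.14 with the replicate block). It was -0.15 within replicate 1 and -0.35 within replicate 2. BACE1 shares 1248 exon bases, 19.3% of its exon length, with RNF214 on the opposite strand and 225 with BACE1-AS, and the strand setting of the counting is not given in the sources used here, so its level is less certain than that of BACE2.

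Per length, the balance between these proteases turned over. On the scale of CPM divided by the exon length in kilobases (RPKM), BACE2 was at 13.0 and 14.9 in shCtrl and at 2.26 and 2.31 in shPML, while BACE1 was at 4.52 and 5.06 in shCtrl and at 4.09 and 3.96 in shPML. BACE2 therefore made up 74.1% and 74.6% of the summed beta-secretase level in shCtrl and 35.6% and 36.8% in shPML. The sum itself was 17.5 and 19.9 RPKM in shCtrl and 6.36 and 6.27 RPKM in shPML. BACE2 had the sixth highest of the 9 levels per length in shCtrl and the lowest in shPML.

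**Figure D1:**
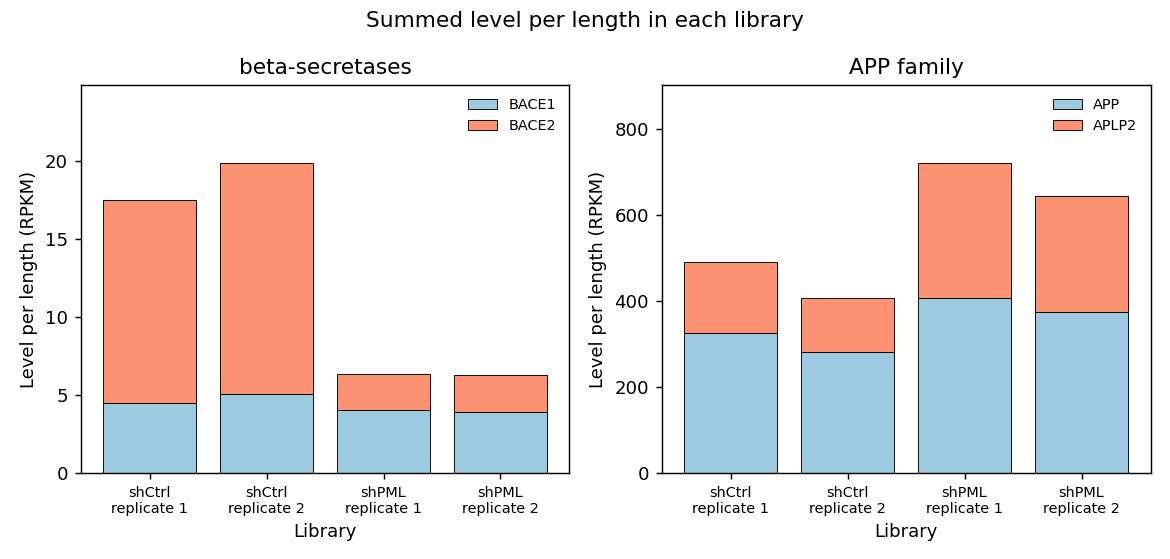
Level per length (RPKM) of BACE1 and BACE2 (left) and of APP and APLP2 (right), stacked in a bar for each of the 4 libraries. The BACE2 part shrinks from 13.0 and 14.9 RPKM in shCtrl to 2.26 and 2.31 RPKM in shPML at a nearly level BACE1 part, while the APLP2 part is larger in both shPML bars.

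The precursors lay in the other direction. APLP2, a homologue of APP that lacks the amyloid-beta sequence, lies on the plus strand of chromosome 11 from 130068147 to 130144811. It was at 648 and 498 CPM in shCtrl and at 1232 and 1060 CPM in shPML replicates 1 and 2. Both shPML libraries were above both shCtrl libraries, by 1.90-fold within replicate 1 and 2.13-fold within replicate 2. The log2 fold change was 1.00 (SE 0.20) and missed the threshold without the block (adjusted p = 0.089), whereas with the replicate block it was 1.01 (SE 0.09, adjusted p = 7.5e-14) and APLP2 was called higher. DESeq2 without a block also called it (adjusted p = 0.000472). Without shPML replicate 2 the log2 fold change was 1.10.

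APP lies on the minus strand of chromosome 21 from 25880550 to 26171128 and was the most abundant member. It was at 1320 and 1139 CPM in shCtrl and at 1652 and 1516 CPM in shPML replicates 1 and 2. All shPML values were above the shCtrl values, with a log2 fold change of 0.37 (SE 0.16, adjusted p = 0.33). With the replicate block the adjusted p was 0.000609 at a log2 fold change of 0.37, which is short of the fold change threshold, so APP was not called in either fit. Per length, APLP2 stood at 0.506 and 0.451 of APP in shCtrl and at 0.769 and 0.720 of APP in shPML. The ratio of APP to BACE2 per length was 25.1 and 18.9 in shCtrl and 180 and 162 in shPML.

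The start regions of APLP2, called higher with the block, and of BACE1, which was not called, are shown to compare the promoters of 2 members on chromosome 11. They span 250 bases before to 50 bases after the RefSeq start (GRCh38.p14) and are written 5′ to 3′ on the strand of the gene, with GC boxes (GGGCGG on either strand, overlaps counted separately) in capitals.
APLP2, chr11:130070318-130070617, plus strand: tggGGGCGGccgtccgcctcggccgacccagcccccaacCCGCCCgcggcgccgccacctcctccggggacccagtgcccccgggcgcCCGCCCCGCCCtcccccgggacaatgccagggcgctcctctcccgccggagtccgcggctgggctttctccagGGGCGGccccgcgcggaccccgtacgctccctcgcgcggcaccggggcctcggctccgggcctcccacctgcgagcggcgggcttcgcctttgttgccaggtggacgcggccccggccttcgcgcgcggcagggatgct
BACE1, chr11:117316207-117316506, minus strand: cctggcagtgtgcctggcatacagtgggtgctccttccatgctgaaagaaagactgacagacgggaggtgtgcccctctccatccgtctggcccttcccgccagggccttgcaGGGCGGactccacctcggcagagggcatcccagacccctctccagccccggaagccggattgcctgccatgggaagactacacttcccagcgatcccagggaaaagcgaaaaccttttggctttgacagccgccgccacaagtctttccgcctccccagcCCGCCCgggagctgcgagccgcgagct
APLP2 has 5 GC boxes and 80.7% G and C in this window, and BACE1 has 2 GC boxes and 64.3%. Of 35116 RefSeq start regions of the same length, 45.0% hold at least 1 GC box, and the median G and C content is 58.7%. BACE1 has 2 further RefSeq starts, with 0 and 1 GC boxes. Of the 9 members, 8 were matched in this table, and BACE2 was not. These matches describe letters and not bound sites.

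Of the 4 gamma-secretase subunits, 3 had higher and 1 had lower levels in shPML, and differences between subunits were not tested. NCSTN, which encodes nicastrin, the subunit that binds the substrate, was at 215 and 202 CPM in shCtrl and at 300.5 and 274 CPM in shPML replicates 1 and 2. Its groups were well apart, but its log2 fold change of 0.46 (SE 0.15) was short of the fold change threshold, with an adjusted p of 0.21 and, with the replicate block, of 0.00013. PSENEN, which encodes PEN-2, the subunit that matures the presenilin, was at 21.8 and 18.1 CPM in shCtrl and at 27.4 and 25.6 CPM in shPML, a log2 fold change of 0.41 (adjusted p = 0.31 without and 0.011 with the replicate block). PSENEN shares 285 of its 1359 exon bases with AD000671.1, which had no counts, and 257 with AD000671.3 on the opposite strand.
PSEN2, a catalytic presenilin, was at 36.2 and 34.6 CPM in shCtrl and at 44.8 and 38.6 CPM in shPML, and the fold change was 0.24 on the log2 scale (SE 0.16, adjusted p = 0.53 without and 0.14 with the replicate block). APH1A, a scaffold subunit, lay the other way, at 175 and 158 CPM in shCtrl and at 151 and 130 CPM in shPML. Its log2 fold change was -0.25 (SE 0.16, adjusted p = 0.52 without and 0.053 with the replicate block). None of these 4 subunits was called in either fit. In each the shPML and shCtrl libraries did not overlap, as was the case for 23.1% (shPML above) and 24.9% (shPML below) of all genes.

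ADAM10, the main constitutive alpha-secretase, was at 117 and 134 CPM in shCtrl and at 152 and 156 CPM in shPML replicates 1 and 2. The shPML libraries were above the shCtrl libraries by 0.38 and 0.22 on the log2 scale within replicates 1 and 2. The fitted log2 fold change was 0.30 (SE 0.15, adjusted p = 0.40 without and 0.019 with the replicate block), short of the fold change threshold.

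**Figure D2:**
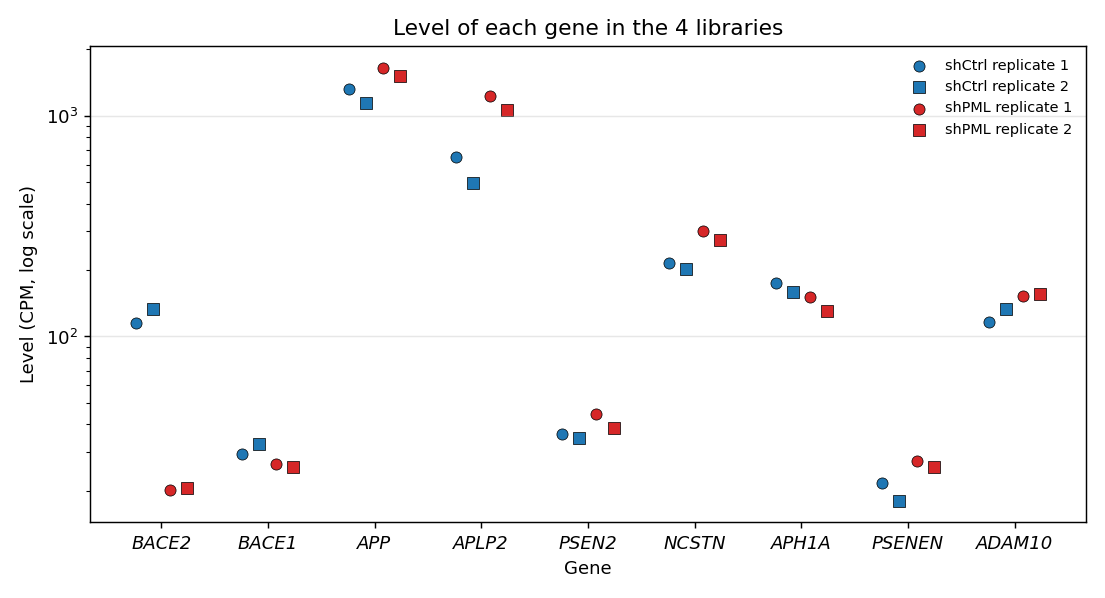
Level of each of the 9 genes (CPM, log scale) in shCtrl (blue) and shPML (red) libraries, circles for replicate 1 and squares for replicate 2. BACE2 drops from 116 and 133 to 20.2 and 20.6 CPM, whereas the red and blue points of the other genes lie close together, farthest apart for APLP2.

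In total, 1 of the 9 members was called lower (BACE2) and 0 higher by edgeR without the block, beside 0.333% and 0.0787% of all genes tested, and 2 members above and 1 below (BACE2) had an unadjusted p under 0.05, beside 7.8% and 10.1% of all genes. With the replicate block 1 was called lower and 1 higher (APLP2), beside 10.5% and 8.57% of all genes, and DESeq2 without a block gave the same counts, beside 6.26% lower and 4.05% higher of the 14274 genes to which it gave an adjusted p. The shPML libraries lay above both shCtrl libraries in 6 members and below them in 3, which is also the case for 23.1% and 24.9% of all genes. The median log2 fold change of the members was 0.30, against 0.01 over all genes tested. Since BACE2 was chosen by this contrast, its call adds nothing to these counts.

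The 2 experiments gave similar values for the members. The gap between the log2 ratios within replicates 1 and 2 was from 0.037 (NCSTN) to 0.21 (BACE1), and no member changed direction between the experiments. Between experiments, replicate 2 differed from replicate 1 by -0.38 to 0.20 on the log2 scale in shCtrl and by -0.22 to 0.04 in shPML. In PSEN2 and APH1A, the shift between the shPML libraries (-0.21 and -0.22) was close in size to the difference between shPML and shCtrl.

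**Figure D3:**
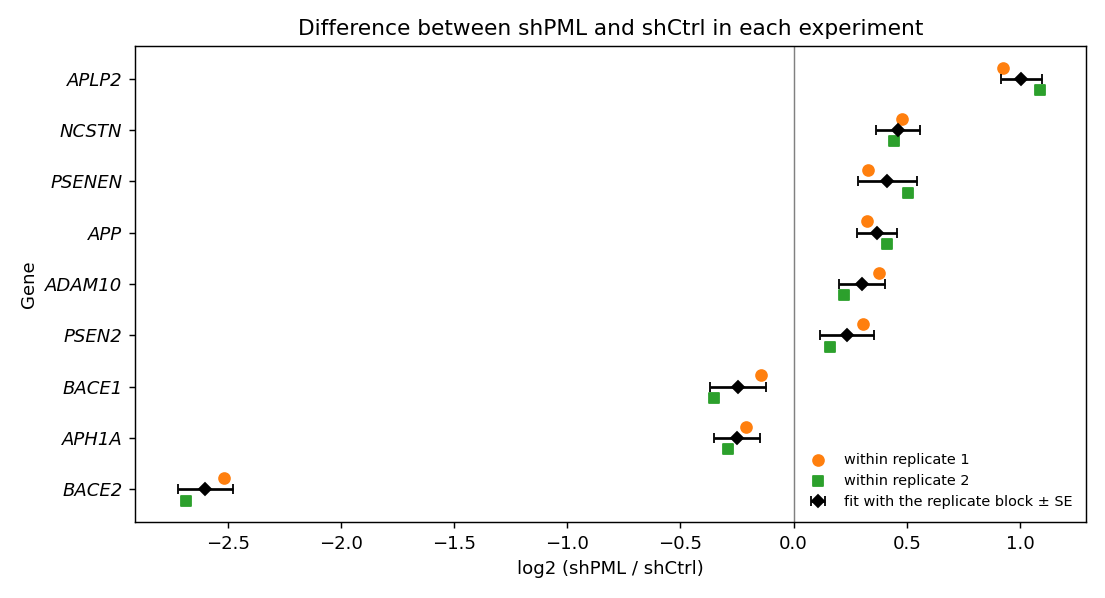
Log2 ratio of shPML to shCtrl of each gene within replicate 1 (circles) and replicate 2 (squares), with the log2 fold change of the fit with the replicate block and its standard error (diamonds). BACE2 lies near -2.60, APLP2 near 1.01, and the other 7 genes between -0.25 and 0.46.

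On the scale per length, the order of the members in shCtrl was APP at 303 ± 31.5 RPKM, APLP2 at 146 ± 27.0, NCSTN at 73.9 ± 3.40, APH1A at 70.6 ± 4.85, PSENEN at 14.7 ± 1.94, BACE2 at 13.9 ± 1.34, PSEN2 at 13.8 ± 0.437, ADAM10 at 9.74 ± 0.923 and BACE1 at 4.79 ± 0.378 (mean ± SD, n = 2). The libraries of NCSTN and APH1A overlapped in shCtrl, although NCSTN was the higher of the 2 within each shCtrl library. Those of PSENEN and BACE2 and of BACE2 and PSEN2 also overlapped, and their order differed between the 2 shCtrl libraries. In shPML the other members kept their order, no pair of neighbours overlapped, and BACE2 at 2.29 ± 0.0325 RPKM came last.

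The remaining family members were read from the same fit. The precursor APLP1, mainly a neuronal protein, was at 1.72 to 3.81 CPM in the 4 libraries, with overlapping groups. Of the alpha-secretases, ADAM17 and ADAM9 had log2 fold changes of 0.24 and -0.26, and neither was called in either fit. APH1B, the alternative scaffold subunit, was at 3.12 and 2.61 CPM in shCtrl and at 7.73 and 6.11 CPM in shPML replicates 1 and 2. Its log2 fold change of 1.27 missed the threshold without the block (adjusted p = 0.11) and it was called higher with the replicate block (adjusted p = 7.6e-05).

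Further lists held secretase regulators, sorting factors, substrates, genes listed for amyloid-beta degradation, other aspartic proteases and Notch targets. They were chosen with earlier results of these data known, so their counts and medians are a description and not an independent comparison with all genes. Some genes, JAG1 among them, stand in several lists. From these lists, a wider set of 98 tested genes that are not members was then counted. By edgeR without the block 0 of them were called, while an unadjusted p under 0.05 was reached by 20 with higher and 10 with lower levels (7.8% and 10.1% of all genes), and DESeq2 without a block called 9 higher and 6 lower (4.05% and 6.26% of the genes with an adjusted p). With the replicate block 20 were called higher and 9 lower, beside 8.57% and 10.5% of all genes tested, and 16 of the 20 and 8 of the 9 were beyond a log2 ratio of 0.5 in the same direction within replicate 1. Their median log2 fold change was 0.11, with 0.15 within replicate 1 and 0.03 without shPML replicate 2. Fits without shPML replicate 2 set shPML replicate 1 against the shCtrl libraries of both replicates, so differences between replicates enter them. Calls named below are those of the fit with the block.

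Among 15 tested genes reported to be cut by BACE1 or BACE2, 5 were called higher and 3 lower, beside 8.57% and 10.5% of all genes. The list includes the members APP and APLP2. Its median of 0.37 on the log2 scale is the value of APP, and the median over all genes was 0.01. Beside APLP2, the higher ones included SEZ6L2, at 49.6 and 66.2 CPM in shCtrl and 81.3 and 125 CPM in shPML, the cytokine receptor subunit IL6ST (0.53 with the block) and the Notch ligand JAG1 (0.54 with the block). The lower ones were the growth factor receptor FGFR1, at 416 and 376 CPM in shCtrl and 172 and 188.5 CPM in shPML (log2 fold change -1.13 with the block), the adhesion molecule L1CAM (-0.71) and the decoy receptor IL1R2 (-1.78). FGFR1, L1CAM and IL1R2 were below both shCtrl libraries in both shPML libraries, as were 24.9% of all genes. CLTRN and SEZ6L, substrates of BACE2 in other tissues, were too low to be tested. SEZ6L2 had a log2 ratio of 0.71 within replicate 1. Its log2 fold change moved from 0.83 to 0.49 in the fit without the block when shPML replicate 2 was left out.

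Of 17 tested gamma-secretase substrates, 3 were called higher and 2 lower, beside 8.57% and 10.5% of all genes. The receptor NOTCH2 was at 584 and 374 CPM in shCtrl and at 1017 and 1007 CPM in shPML replicates 1 and 2, a difference of 1.08 in log2 fold change without the block (adjusted p = 0.113) that was called with it (adjusted p = 7.7e-14). SORT1 and JAG1 were the other higher genes, and the ephrin receptor EPHA4 (-1.19) and its ligand EFNB2 (-0.58) the lower ones. EFNB2 was at -0.59 without the block and at -0.38 when shCtrl replicate 2 was also left out. Of 7 tested Notch target genes, CCND1 was called higher (0.90) and HEYL lower (-0.96), beside 8.57% and 10.5% of all genes. HES1 and HEY1, direct targets of Notch, had log2 fold changes of 0.22 and 0.06 and were not called. The list had a median of 0.06, beside 0.01 over all genes, and of 0.17 within replicate 1. Its median was -0.14 when shPML replicate 1 was set against both shCtrl libraries, without shPML replicate 2. With no block, CCND1 moved from 0.93 to 0.52 and HEYL from -0.90 to -1.39 without that library, and HEYL to -0.53 without shPML replicate 1. Within replicate 1 the log2 ratios of CCND1 and HEYL were 0.72 and -1.54.

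Among ADAM10 regulators and substrates 4 of 17 were called higher and 1 (L1CAM) lower, beside 8.57% and 10.5% of all genes. Beside NOTCH2, RECK, an inhibitor of ADAM10, was at 11.2 and 10.9 CPM in shCtrl and at 21.2 and 18.4 CPM in shPML. TSPAN10, a tetraspanin partner of ADAM10, was at 7.41 and 10.9 CPM in shCtrl and at 10.2 and 21.7 CPM in shPML, so its groups overlapped. The log2 ratios of TSPAN10 were 0.45 and 1.00 within replicates 1 and 2. Without the block its log2 fold change was 0.80, 0.16 without shPML replicate 2 and 1.24 without shPML replicate 1. CXCL16, a chemokine shed by ADAM10, reached 11.1 CPM in shPML replicate 2 and at most 0.462 CPM in the other libraries, and in the fit without the block its log2 fold change moved from 4.06 to 0.18 without that library, which held the leukocyte transcripts.

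Of 6 other tested aspartic proteases, 1 was called higher and 2 lower with the block, beside 8.57% and 10.5% of all genes. The lower ones were the intramembrane proteases SPPL2A (-0.81) and SPPL3 (-0.72), relatives of presenilin. SPPL3 was at 43.3 and 46.0 CPM in shCtrl and at 26.5 and 27.8 CPM in shPML. The lysosomal protease CTSD was called higher (0.64), but its groups overlapped, at 688 and 1109 CPM in shCtrl and 998 and 1862 CPM in shPML replicates 1 and 2. Its log2 ratios were 0.54 and 0.75 within replicates 1 and 2. In the fit without the block its log2 fold change was 0.67, and with 1 library left out it was from 0.15 (without shPML replicate 2, the library with leukocyte transcripts) to 1.05 (without shCtrl replicate 2), with 0.38 without shCtrl replicate 1 and 1.04 without shPML replicate 1.

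Of 8 tested genes listed for amyloid-beta degradation, 5 were called higher and 0 lower with the block, beside 8.57% and 10.5% of all genes. The 5 were CTSB, PLAU, MMP9, CTSD and MMP2, and the groups of MMP9 and CTSD overlapped. DESeq2 without a block called 3 higher and 0 lower, beside 4.05% and 6.26% of the genes with an adjusted p. Without the block, an unadjusted p under 0.05 was reached by 5 with higher and 0 with lower levels, beside 7.8% and 10.1%. The median log2 fold change of the list was 0.78, against 0.57 within replicate 1. CTSB, a lysosomal cysteine protease, was at 609 and 485 CPM in shCtrl and at 1013 and 1022 CPM in shPML, and the urokinase PLAU at 68.4 and 44.7 CPM and at 104 and 106 CPM. MMP9 was at 2.73 and 16.1 CPM in shCtrl and at 14.6 and 450 CPM in shPML replicates 1 and 2. Its log2 ratio within replicate 1 was 2.42. The part of leukocyte transcripts in the value of shPML replicate 2 was not tested. Without that library the log2 fold change of MMP9 in the fit without the block was 0.64, against 4.63 with it. That fit sets shPML replicate 1 against both shCtrl libraries. MMP2 had only 9 and 0 counts in shCtrl and 40 and 138 counts in shPML replicates 1 and 2. Without the block, leaving out shPML replicate 2 moved MMP2 from 4.86 to 2.61 and CTSD from 0.67 to 0.15. Within replicate 1 the log2 ratios of MMP2 and CTSD were 1.75 and 0.54. The neprilysin gene MME, also a marker of kidney tubule cells, had a log2 fold change of 0.47 and was not called, and the insulin-degrading enzyme IDE had -0.13.

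Of the sorting factors 3 of 15 were called higher and 0 lower, beside 8.57% and 10.5% of all genes. The higher ones were SORL1, SORT1 and LRP10, all receptors that bind APP or BACE1. At an unadjusted p under 0.05, 4 sorting factors were higher and 1 lower (7.8% and 10.1% of all genes), and DESeq2 without a block called 1 higher and 0 lower (4.05% and 6.26% of the genes with an adjusted p). SORT1 was at 83.4 and 70.2 CPM in shCtrl and at 114 and 106 CPM in shPML. SORL1 had 0.369 and 0.389 CPM in shCtrl, 1.00 CPM in the first shPML library and 4.84 CPM in the second shPML library, which held the leukocyte transcripts. Of 18 regulators, 2 were called higher and 1 lower, beside 8.57% and 10.5% of all genes. The APP adaptors APBB3 (0.93) and APBB2 (-0.82) were called in opposite directions. GSAP, the gamma-secretase activating protein, was called higher at 0.50, just past the threshold. The log2 ratios of GSAP were 0.25 and 0.78 within replicates 1 and 2, and without a block its log2 fold change was 0.49, 0.80 without shCtrl replicate 1 and 0.24 without shCtrl replicate 2. Without shPML replicate 2, SORL1 moved from 2.92 to 1.40 and LRP10 from 0.80 to 0.46 in that fit. Within replicate 1 the log2 ratios of SORL1 and LRP10 were 1.44 and 0.67.

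**Figure D4:**
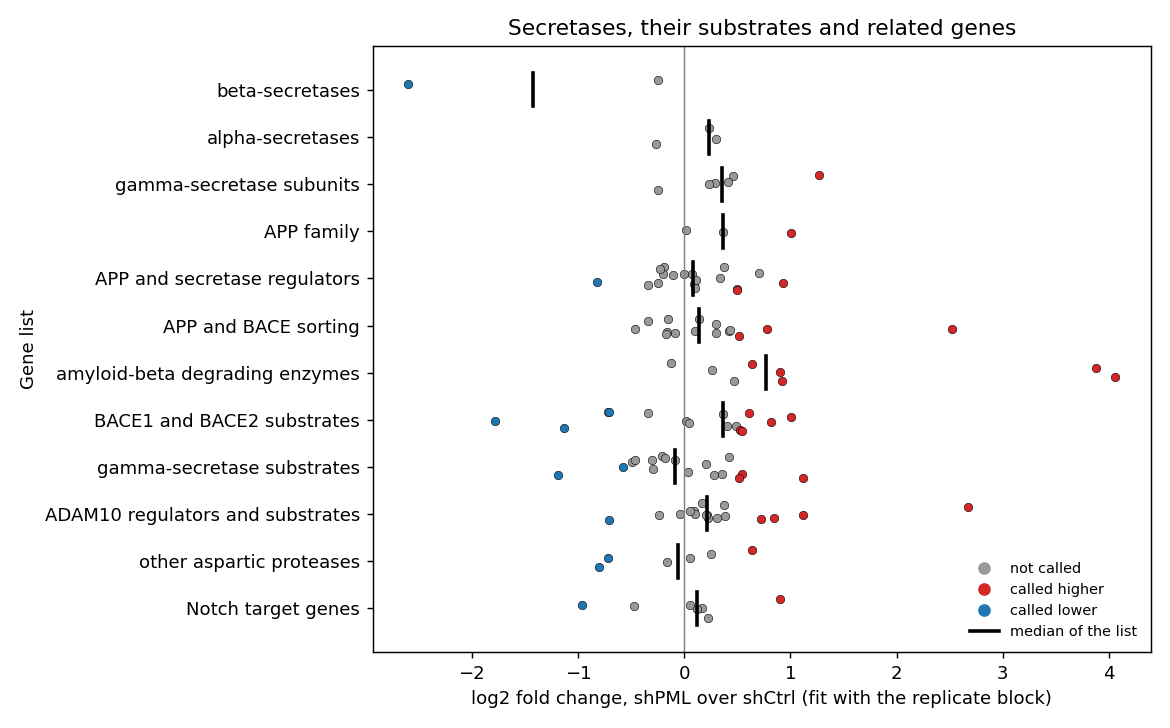
Log2 fold change of shPML over shCtrl in the fit with the replicate block for each tested gene of the lists, members included, with called genes in red (higher) and blue (lower) and a black bar at the median of each list. BACE2 is the blue point farthest to the left, and the points above 2 are SORL1, MMP9, MMP2 and CXCL16.

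BACE2 and APP both lie on chromosome 21. Over the 165 tested genes of this chromosome the median log2 fold change was 0.04. Without the block 1 was called lower and 0 higher, beside 0.333% and 0.0787% of all genes. The called gene was BACE2, which was chosen by this contrast, so nothing is read from this count. With the block 18 were called lower and 17 higher, beside 10.5% and 8.57% of all genes. Of the 5 tested genes on each side of BACE2, RIPK4, a kinase gene, was called lower with the block, at 52.1 and 72.1 CPM in shCtrl and 30.4 and 38.3 CPM in shPML, a log2 fold change of -0.84. The interferon-stimulated gene MX1, the closest tested gene after BACE2, was called higher with the block, at 2.59 and 2.42 CPM in shCtrl and 3.21 and 13.35 CPM in shPML replicates 1 and 2, the last in the library with leukocyte transcripts. Of the 5 tested genes on each side of APP, ADAMTS1 was called higher (0.68 with the block) and AP000221.1, a gene under 1 CPM in every library, was called lower. APP and BACE2 thus lay in opposite directions on 1 chromosome. Most tested neighbours of either gene were not called, as was the case for most of all genes. B3GALT5-AS1, AF064860.1, AF064860.2 and AP001619.1 beside BACE2 and AP000229.1 beside APP were under 1 CPM in every library, so their missing calls say little. IGSF5 was under 1 CPM in both shCtrl libraries and ends at 39802096, far before BACE2. RIPK4 was lower within both replicates, at log2 ratios of -0.775 and -0.912.

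The genes whose pattern was most like that of BACE2 over the 4 libraries, by the root mean square difference of log2 CPM centred on each gene's mean, were LINC01671, ATP6V0A4 (0.12), TAGLN2 (0.16), TAGLN3 (0.16) and SHPK (0.17). TAGLN2, an actin-binding protein of the transgelin family, was at 891 and 1041 CPM in shCtrl and at 193 and 201 CPM in shPML. TAGLN3, of the same family, was at 8.48 and 8.67 CPM and at 1.77 and 1.49 CPM. ATP6V0A4, a proton pump subunit of kidney epithelium, was at 8.61 and 8.14 CPM in shCtrl and at 1.44 and 1.53 CPM in shPML, and SHPK, a sedoheptulose kinase, at 7.58 and 8.47 CPM and at 1.69 and 1.53 CPM. LINC01671, a non-coding RNA also on chromosome 21, had 12 and 9 counts in shCtrl and 0 in both shPML libraries, so its likeness was set by the prior count added before the log and no distance is given. These genes were picked by the contrast that chose BACE2, so their values are a description.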

How the data were processed

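RNA of RCC4 cells was measured in 2 shCtrl and 2 shPML libraries. Per the labels and the methods, stranded mRNA libraries were sequenced single-end, trimmed with Trimmomatic 0.39, mapped to GRCh38 by STAR and assigned to genes of a Gencode release by featureCounts 1.6.4, and the authors deposited the raw counts per gene without normalization. Gencode release and strand setting are not given in the sources used here. The columns without a number were taken as replicate 1, since the other column of each group carries the number 2. The labels of 2 samples had been swapped in the original record and were used as corrected.

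Counts were filtered with filterByExpr, normalized by TMM and tested with edgeR 4.0.16 in R 4.3.3. DESeq2 1.42.0 was an alternative, as were the replicate block, RLE normalization, other filters and fold change thresholds, and each library left out. The methods describe 2 experiments, and the replicate numbers of the labels were read as these without a source that says so. Deviations of the replicate 1 libraries from their group means correlated at 0.546 across genes. RPKM was computed here from CPM and the summed exon length of each gene in the deposited file. The fits were tested on simulated data. Members and lists were chosen with earlier results of these data known. Named genes were the members, PML, listed genes called in either fit (at most 4 per list and direction, by the smallest p with the block), the 5 genes most like BACE2, the tested neighbours of BACE2 and APP, and genes sharing exon bases with members. Genes named beyond this rule (APLP1, ADAM9, ADAM17, HES1, HEY1, MME, IDE, MMP2, CLTRN, SEZ6L and the myeloid genes) were chosen after their values were seen.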

Additional observations from a re-analysis of the deposited data

Results flagged for a closer look

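CXCL16 differed in direction between the experiments, with a log2 ratio of shPML to shCtrl of -0.29 within replicate 1 and 5.83 within replicate 2. This difference was not tested, as each experiment holds 1 library of each condition, and in shPML replicate 2 the leukocyte markers LYZ and PTPRC were at 85.4 and 12.6 CPM.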

How the results depend on the processing

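All 9 members had the same direction under every alternative run. The BACE2 log2 fold change was between -2.68 and -2.51 and that of APLP2 between 0.82 and 1.22 over all alternatives. The calls depended on the fit. Genes called lower and higher numbered 55 and 13 without a block, 1735 and 1415 with the replicate block in edgeR, 894 and 578 in DESeq2, 1384 and 1102 in DESeq2 with the replicate block, 946 and 891 without a filter on low counts, 144 and 53 with at least 10 counts in every library, and 0 and 0 with RLE normalization. Without a threshold on the fold change, or with a threshold of 1, both counts stayed at 55 and 13. With 1 library left out, from 0 to 61 genes were called lower and from 0 to 187 higher. Among the members, 0 were called lower with RLE normalization and from 0 to 1 with 1 library left out. The BACE2 call was lost without shCtrl replicate 1, shCtrl replicate 2 or shPML replicate 2. Such fits assume that the single library of a group varies like the other group. Among the members, 1 was called higher (APLP2) in DESeq2, with the replicate block in edgeR and in DESeq2, and without a filter, and 0 otherwise. Of the values of single members under alternatives, 82 kept their side of the threshold, 4 (APLP2) gained a call and 4 (BACE2) lost it. The counts of calls include BACE2, which was chosen by this contrast. Differences as small as those of BACE1, PSEN2 and APH1A are below the fold change threshold of 0.5.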
